A study of Caenorhabditis elegans with 2 samples.

Results

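Binding of the GATA transcription factor ELT-1 was examined at 10 genes of Caenorhabditis elegans, the 6 Hox genes ceh-13, lin-39, mab-5, egl-5, nob-1 and php-3 and 4 genes for their cofactors, unc-62 of the Meis type and ceh-20, ceh-40 and ceh-60 of the Pbx type. The genes were listed by name, and all 10 matched 1 of the 19985 protein-coding genes of the annotation (Ensembl release 115, WBcel235, which is ce11). RefSeq names the product of each as a homeobox protein. Each gene was taken with 10 kb on each side, which is called its window, and these windows held 13 of the 1910 peaks that passed the authors' threshold. Of the 10 genes, 4 had such a peak in the window, 2 of the 6 Hox genes (ceh-13 and lin-39) and 2 of the 4 cofactor genes (unc-62 and ceh-20). Among all protein-coding genes, 28.6% had a thresholded peak in a window built the same way.

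The data are chromatin immunoprecipitation and sequencing (ChIP-seq) of ELT-1 fused to eGFP, from whole L3 larvae of mixed sex, in 2 biological replicates that form a single group. All animals were of strain OP354, which has the mutation tm4063 in unc-119 and the insertion wgIs354 for tagged elt-1. The tagged protein thus comes from an insertion, and whether it is expressed like the native gene was not tested. Whole animals were used, so the tissue in which a site was bound cannot be told from these peaks, and there is no second condition. The authors' lists were a thresholded list set by the irreproducible discovery rate (IDR), which scores how far the ranking of peaks repeats across replicates, and relaxed lists for replicate 1, replicate 2 and both pooled.

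Hox genes encode homeodomain transcription factors that give cells their identity along the body from head to tail. Homeodomain proteins of the Pbx and Meis types bind DNA beside Hox proteins and sharpen their choice of sites. In the worm epidermis, Hox genes decide among other things which ventral cells stay unfused and can form the vulva, and how the lateral seam cells of each body region divide. ELT-1 is a zinc finger protein that binds GATA sequences and is required for epidermal fate in the embryo.

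A summit is the position of highest signal in a peak. The signal is the authors' own value for a peak and is compared only within a list, and a percentile is the share of the list with that signal or less. In the IDR list signal ran from 27.7 to 1900 with a median of 40.8, and in the pooled list of 30000 regions it went down to 4.57, so many pooled regions can be background. In the 10 windows the IDR summits had signals of 28.2 to 102 and a median of 37.7, with a median percentile of 41.8. Each had the same rank by signal in the IDR list as in the pooled list, and some had a low rank in 1 replicate. A place in the IDR list thus does not show that a summit was strong in both replicates. The pooled list had 97 summits there, the replicate 1 list 100 and the replicate 2 list 91, and in each of these lists all 10 genes had at least 1. Read depth is unknown.

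**Figure D1:**
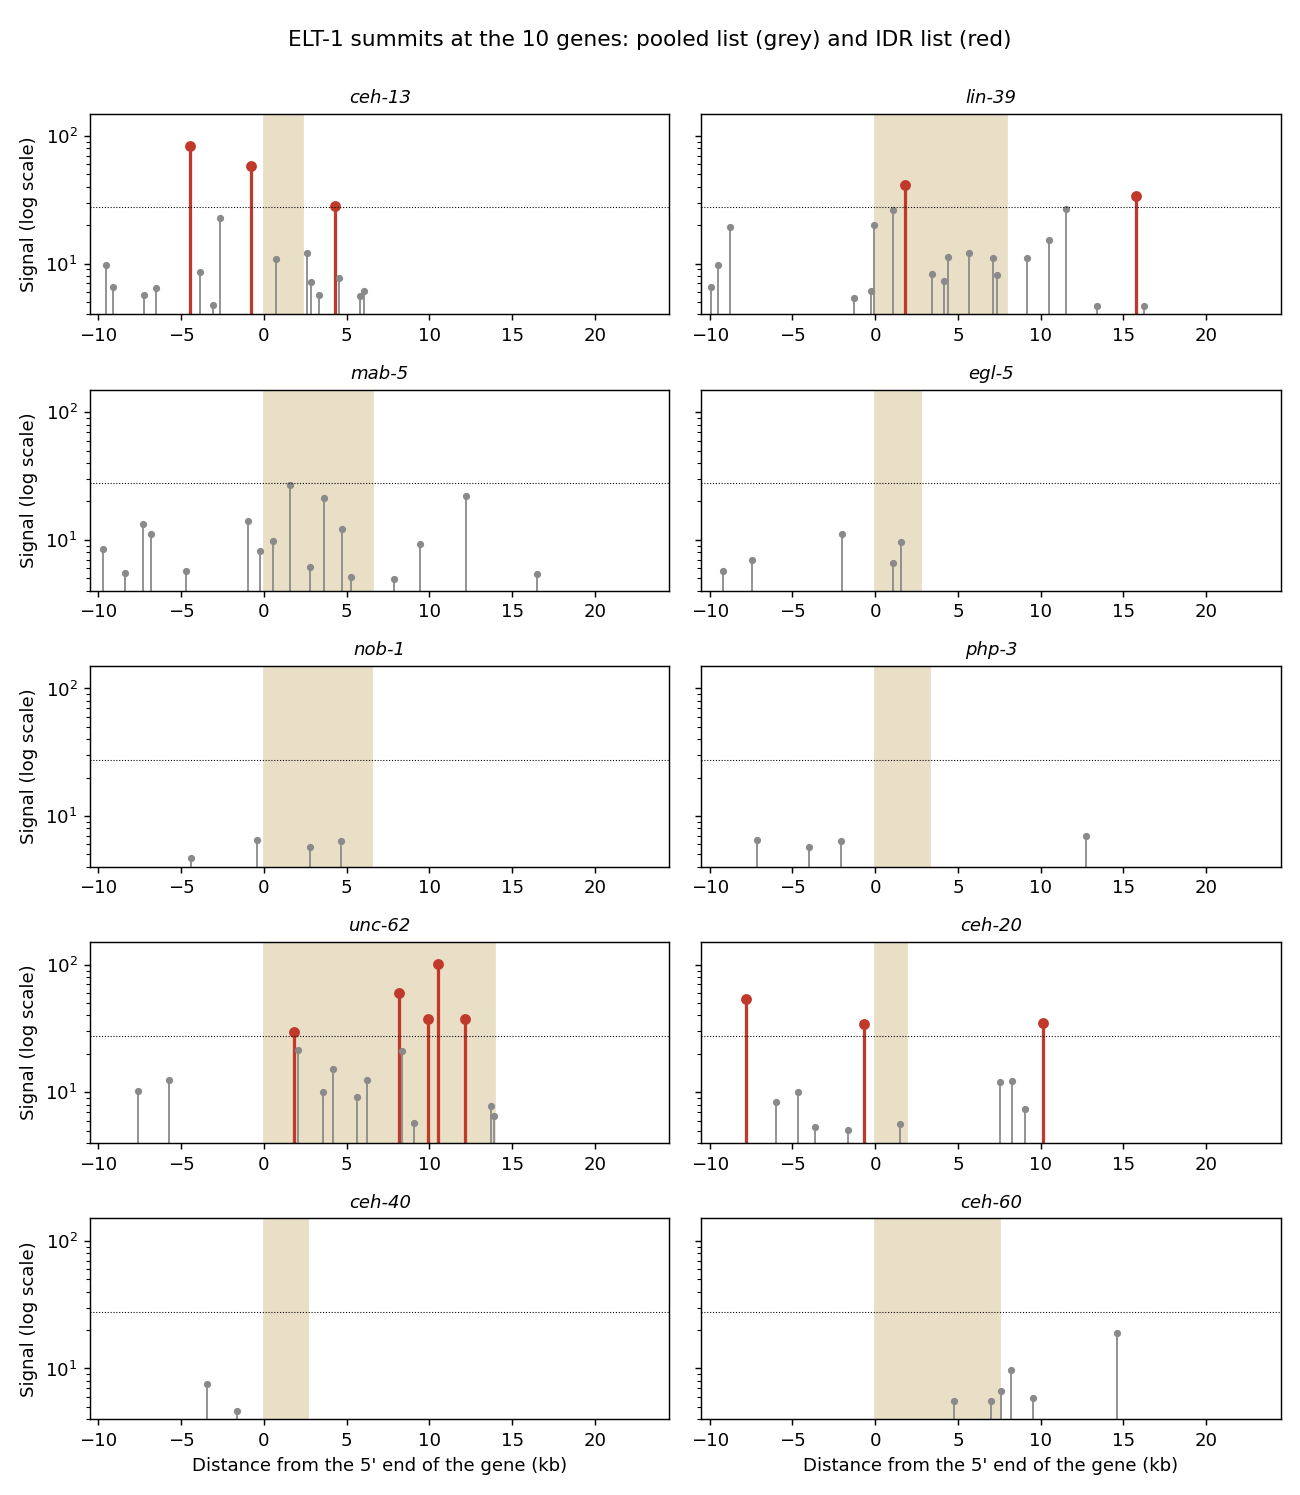
Signal of each pooled summit (grey) and IDR summit (red) against distance in kb from the 5' end of the gene, along its direction of transcription, in the window of each of the 10 genes. The shaded band is the gene, the vertical axis is logarithmic and the dotted line is the lowest IDR signal of 27.7. The unc-62 gene has 5 IDR summits inside the gene, ceh-13 has 2 upstream and 1 downstream, and the 6 genes mab-5, egl-5, nob-1, php-3, ceh-40 and ceh-60 have none.

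ceh-13, the labial-type Hox gene of the anterior body, had in its window the strongest IDR peaks of the Hox genes. The gene (WBGene00000437, plus strand) lies on chromosome III at 7555660 to 7558041, and its window held 3 IDR summits, none of them in the gene. The strongest peak, at 7551126 to 7551261, had its summit 4466 bp upstream of the transcript start, with a signal of 82.9 and a percentile of 88.3. It was ranked 141 of 29029 in replicate 1 with a signal of 41.7, and 423 of 30000 in replicate 2 with a signal of 39.9. The next, at 7554722 to 7555061, had its summit 768 bp upstream, within the promoter window, which runs from 1000 bp upstream to 200 bp downstream of a transcript start. Its signal was 58.2, at percentile 75.7, with rank 287 in replicate 1 and 729 in replicate 2. Both upstream peaks were thus strong in each replicate. No protein-coding gene lies between ceh-13 and lin-39, which is on the minus strand, so both peaks are also upstream of lin-39. They fall outside the 10 kb window of lin-39, and which gene they act on was not tested.

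The third ceh-13 peak, at 7559814 to 7560153, was near the bottom of the IDR list, with a signal of 28.2 at percentile 3.14. Its summit was 4324 bp downstream of the ceh-13 start and nearer to that of lgc-12, a gene of the ligand-gated ion channel family, at 2188 bp. The replicates differed here: it was ranked 1685 in replicate 2 with a signal of 19.95, and 10398 in replicate 1 with a signal of 4.61. The bases within 50 bp of the 3 summits are shown. They held a GATA site at the weakest peak and none at the stronger ones. The nearest GATA site lay 154 bp from the summit 4466 bp upstream. For the summit 768 bp upstream it lay at 97 bp, inside that peak. The sequences are of the plus strand of ce11. Capitals mark the GATA form TGATAA and the Hox with Pbx motif TGATNNAT. The latter was found on the plus strand at 768 bp upstream. Downstream, both were on the minus strand, as TTATCA and ATGTATCA.
ceh-13, 4466 bp upstream, chrIII:7551144-7551244: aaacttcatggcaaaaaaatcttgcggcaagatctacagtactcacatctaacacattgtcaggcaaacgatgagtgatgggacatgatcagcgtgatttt
ceh-13, 768 bp upstream, chrIII:7554842-7554942: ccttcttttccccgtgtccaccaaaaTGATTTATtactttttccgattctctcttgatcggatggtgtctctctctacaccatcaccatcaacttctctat
ceh-13, 4324 bp downstream, chrIII:7559934-7560034: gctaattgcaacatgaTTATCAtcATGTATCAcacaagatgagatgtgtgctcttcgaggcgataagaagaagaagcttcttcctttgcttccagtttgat

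lin-39, the Hox gene of the mid-body that is required in vulval precursor cells, had 1 IDR peak in the gene. The gene (WBGene00003024, minus strand, III, 7528641 to 7536632) has 2 annotated transcript starts. The peak at 7534684 to 7535023 had its summit 49 bp upstream of the inner start, in an intron of the longer transcript and 1778 bp downstream of the first start. Its signal was 41.2, at percentile 51.0, near the middle of the IDR list. Replicate 2 had it at rank 1002 with a signal of 26.6, while the nearest replicate 1 summit, 64 bp away, was at rank 14589 with a signal of 3.74. A stronger replicate 1 summit lay 139 bp away, at rank 868 with a signal of 16.9. Whether it and the IDR summit mark the same site was not tested. The stronger replicate 1 summit had a GATA site, WGATAR, within 50 bp, where W stands for either A or T and R for either purine. The IDR summit did not, and its nearest such site was 122 bp away.

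The window of lin-39 also held an IDR summit that lay 9 bp from the start of the gene cux-7, in an untranslated exon of that gene (peak at 7520666 to 7521005, signal 33.7, percentile 28.6). It was ranked 620 in replicate 1 and 3281 in replicate 2. Below the threshold, the pooled list had 4 further summits of the lin-39 window among the 1910 regions that follow the IDR list in signal. The highest, with a signal of 26.99 at rank 1978, was nearest to the start of lig-4, and the next, with 26.4 at rank 2050, was in the lin-39 promoter window. The others had signals of 20.2 and 19.4, at ranks 3018 and 3192. The sequence at the intronic summit, given without the bases of the exon that begins at the inner start, holds none of the motifs searched.
lin-39, inner start, chrIII:7534806-7534904: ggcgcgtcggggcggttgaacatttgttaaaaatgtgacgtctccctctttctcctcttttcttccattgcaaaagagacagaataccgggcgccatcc

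mab-5, an Antennapedia-type Hox gene of the posterior body, had no IDR summit in its window, but its strongest pooled peak came just under the threshold. The gene (WBGene00003102, minus strand, III, 7776835 to 7783454) had this peak in an intron, at 7781704 to 7782043, with its summit 1580 bp downstream of the start. Its pooled signal of 26.8 ranked 2007, beside the lowest IDR signal of 27.7. The nearest replicate summits had rank 1565 in replicate 1, with a signal of 12.2, and rank 2903 in replicate 2, with a signal of 14.4. The replicate 1 rank is inside the strongest 1910 and the replicate 2 rank is outside. An AGATAA site lay 2 bp from the pooled summit, in capitals in the sequence, on the plus strand of ce11. The nearest IDR summit to the mab-5 start was 58867 bp away.
mab-5, intron, chrIII:7781824-7781924: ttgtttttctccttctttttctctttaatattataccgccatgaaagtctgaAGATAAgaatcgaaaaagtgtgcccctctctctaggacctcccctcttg

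The Abdominal-B-type Hox genes egl-5, nob-1 and php-3, which act in the tail, had low pooled signals. At egl-5 (WBGene00001174, plus strand, III, 7814374 to 7817141) the 5 pooled summits had signals of 5.74 to 11.2, the highest 1988 bp upstream at rank 7581. A replicate 1 summit in an egl-5 intron, 1087 bp downstream of a start, was at rank 1879 of that list with a signal of 11.1, and no replicate 2 summit lay within 100 bp of it. The pooled summit matched to it had a signal of only 6.61, at rank 18443. At nob-1 (WBGene00003779, minus strand, III, 12077793 to 12084316) the 4 pooled summits had signals of 4.67 to 6.54, the highest 399 bp upstream at rank 18801. The neighbouring php-3 (WBGene00004024, minus strand, III, 12074218 to 12077556) shares 3 of these summits within 10 kb. Its only other pooled summit, with a signal of 7.03 at rank 16765, was nearest to the start of zyg-8, a gene for a doublecortin-family microtubule kinase. Between its neighbouring genes php-3 had 0 summits in each of the 4 lists. The nearest IDR summit was 40308 bp from the egl-5 start, 63157 bp from that of nob-1 and 61278 bp from that of php-3.

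unc-62, the homothorax and Meis-type cofactor gene, had 5 IDR summits, more than any other of the 10 genes. The gene (WBGene00006796, plus strand, V, 4497461 to 4511449) has 18 annotated transcripts with 15 different starts, and all 5 summits lay inside it. The strongest peak, at 4507881 to 4508036, had a signal of 102 at percentile 92.3, the highest in the 10 windows. It was ranked 220 in replicate 1 with a signal of 33.3, and 112 in replicate 2 with a signal of 72.2. Its summit was 10524 bp downstream of the first start and 781 bp downstream of the last one. It lay in an untranslated exon of 1 transcript and in an intron of the other 17. The peak at 4505428 to 4505767 was the next, at percentile 77.1 and rank 438 of the IDR list, with ranks of 302 in replicate 1 and 623 in replicate 2. Its summit was in an untranslated exon of 2 transcripts and an intron of 15.

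The remaining unc-62 peaks were weaker, and 2 of them were outside the strongest 1910 in 1 replicate. The peak at 4509470 to 4509809 had a signal of 37.7, with rank 1023 in replicate 1 and 1502 in replicate 2. The peak at 4507214 to 4507553, with its summit 180 bp downstream of the last start, had a signal of 37.3 and was ranked 676 in replicate 2 but 4717 in replicate 1. The peak at 4499129 to 4499468, with its summit 28 bp upstream of an internal start, had a signal of 29.8 at percentile 12.1. It was ranked 758 in replicate 1 and 1979 in replicate 2. In relation to the first start, these summits lay 12179, 9923 and 1838 bp downstream, so no unc-62 summit was within 1000 bp of the 5' end of the gene.

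Motifs at the unc-62 summits are shown with their flanks, in capitals on the plus strand of ce11. TGATNNAT was within 50 bp of the strongest summits, and the GATA form TGATAA, read on the minus strand as TTATCA, was within 50 bp of the summit at 4509640. The summit at 4505598 had AGATAA, read as TTATCT, at 62 bp, and that at 4507384 had TGATAG at 57 bp and, next to it in lower case, TGATAA. The summit at 4499299 had none of the motifs searched within 50 bp, and its nearest WGATAR was 342 bp away.
unc-62, summit 4507985, chrV:4507993-4508022: agccttggcaaTGATGGATcgccgcagctg
unc-62, summit 4505598, chrV:4505576-4505605: ttttttttgtcTGATTCATttctcaccttt
unc-62, summit 4505598, chrV:4505519-4505548: aagggtgcaggcTTATCTcgaatattaatc
unc-62, summit 4509640, chrV:4509671-4509690: caacattgattcTTATCAtc
unc-62, summit 4507384, chrV:4507429-4507458: ttaggaagctgaTGATAGgggttgataacg

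ceh-20, the main Pbx-type cofactor gene of the worm, had an IDR peak upstream and others beyond its neighbours. The gene (WBGene00000443, plus strand) is at III, 6979884 to 6981785. The peak at 6979016 to 6979355, with its summit 698 bp upstream in the promoter window, had a signal of 34.5 at percentile 31.8. It was ranked 1647 in replicate 1 with a signal of 11.9, and 1258 in replicate 2 with a signal of 23.6, inside the strongest 1910 of both. The other IDR summits of the window were at the starts of other genes. A stronger peak, with a signal of 53.4, had its summit 166 bp from the start of rfc-4, a gene for a subunit of the replication factor that loads the DNA clamp. A peak with a signal of 34.7 had its summit 161 bp from the start of the kinase gene prk-1. The ceh-20 summit held none of the motifs searched within 50 bp, as its sequence shows, and its nearest WGATAR was 225 bp away.
ceh-20, 698 bp upstream, chrIII:6979136-6979236: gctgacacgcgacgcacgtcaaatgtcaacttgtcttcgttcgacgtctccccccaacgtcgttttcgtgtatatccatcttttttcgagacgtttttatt

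The other Pbx-type genes, ceh-40 and ceh-60, are on the X chromosome and had no IDR summit in their windows. ceh-40 (WBGene00000461, minus strand, X, 12318126 to 12320777) overlaps ceh-20 in function in the embryo, and its window had 2 pooled summits, with pooled signals of 7.5 and 4.6. Both had WGATAR within 50 bp, and neither lay between ceh-40 and its neighbouring genes. ceh-60 (WBGene00017690, minus strand, X, 6522596 to 6530146), known for roles with unc-62 in yolk protein expression in the intestine, had 6 pooled summits, the highest with a signal of 18.8 at rank 3343. That summit was nearest to the start of ttr-35, at 3255 bp, and had rank 2376 in replicate 2 and no match within 100 bp in replicate 1. The nearest IDR summit was 42429 bp from the ceh-40 start and 80928 bp from that of ceh-60.

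**Figure D2:**
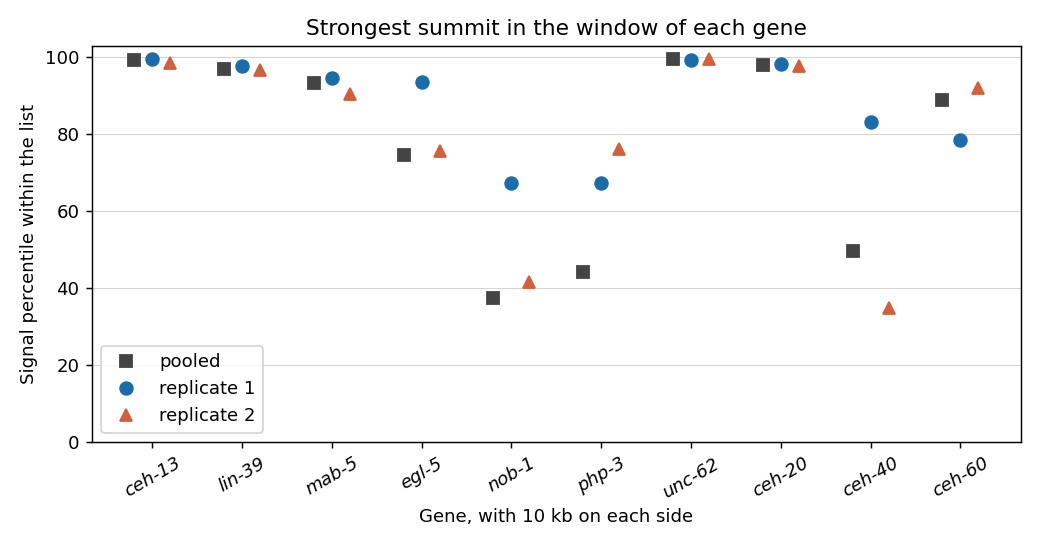
Percentile, within each list, of the strongest summit in the window of each of the 10 genes, for the pooled list (squares), replicate 1 (circles) and replicate 2 (triangles). ceh-13, lin-39, unc-62 and ceh-20 are above 96 in every list and mab-5 above 90, while nob-1, php-3 and ceh-40 are below 84 in every list.

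By the strongest summit in the window, the 4 genes with an IDR summit led in both replicates. The IDR list was made from the same replicates, so this lead is not independent of it. In replicate 1 the percentiles of the strongest summits were 99.5 for ceh-13, 99.2 for unc-62, 98.3 for ceh-20 and 97.9 for lin-39. In replicate 2 they were 99.6 for unc-62, 98.6 for ceh-13, 97.7 for ceh-20 and 96.7 for lin-39. For ceh-20 in both replicates and lin-39 in replicate 1, these summits were the ones at the starts of rfc-4, prk-1 and cux-7. mab-5 came next in replicate 1, at 94.6, and was behind ceh-60 in replicate 2, at 90.6 against 92.1. egl-5 was at 93.5 in replicate 1 and 75.6 in replicate 2, and ceh-40 at 83.1 and 34.7, so the order of the lower genes was not shared. ceh-13 ranked above unc-62 in replicate 1 and below it in replicate 2.

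Of the 13 IDR summits, 7 were matched within 100 bp among the 1910 strongest summits of both replicates, beside 55.1% of all IDR summits. All 13 had a match somewhere in both relaxed lists. The 7 were the upstream pair of ceh-13, the summit near ceh-20 and the one at rfc-4, and 3 of unc-62. In each replicate, 10 of the 13 were among the strongest. Of the summits missed in replicate 1, the downstream one of ceh-13 had a percentile of 64.2 there against 94.4 in replicate 2. For 1 of unc-62 these were 83.8 and 97.8, and for lin-39 they were 49.7 and 96.7. At lin-39 a stronger replicate 1 summit, at percentile 97.0, lay 139 bp away, beyond the match distance. With a match within 200 bp, 8 of the 13 were matched. Of the summits missed in replicate 2, the one at prk-1 had a percentile of 86.2 there against 98.3 in replicate 1. The one at cux-7 had 89.1 against 97.9, and that of unc-62 at 4499299 had 93.4 against 97.4. The percentile was higher in replicate 1 at 8 of the 13.

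**Figure D3:**
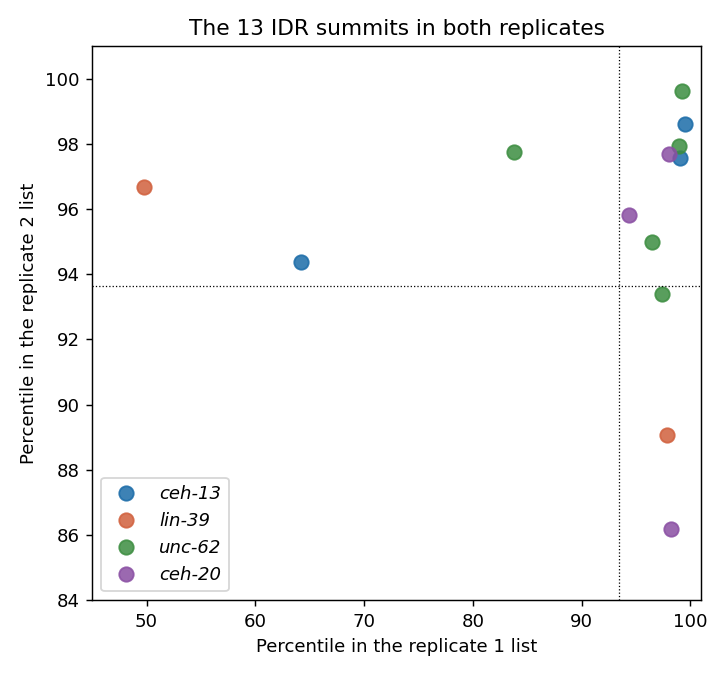
Percentile of each of the 13 IDR summits in the replicate 1 list (horizontal) and the replicate 2 list (vertical), from the nearest summit within 100 bp, with dotted lines at the limit of the 1910 strongest. The 3 points left of the vertical line, from lin-39, ceh-13 and unc-62, had matched summits outside the strongest of replicate 1. For lin-39 a stronger replicate 1 summit, at percentile 97.0, lay 139 bp away, beyond the match distance. The 3 points below the horizontal line were outside the strongest of replicate 2.

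Most of these summits lacked a GATA site, as did most summits of the whole IDR list. WGATAR was searched in its forms AGATAA with AGATAG and its forms TGATAA with TGATAG, on both strands, with the whole site within 50 bp of the summit. It was present at 2 of the 13, 15.4% (exact 95% binomial interval 1.92 to 45.4), beside 39.7% of all IDR summits. The interval includes this share. Both summits with a site had TGATAA, namely the weakest ceh-13 summit and that of unc-62 at 4509640. AGATAA was at 0 of 13, beside 23.2% of all IDR summits. The exact 95% binomial interval of that 0 runs up to 24.7% and includes this share, and the limit from 3 counts is 23.1%. With the whole site inside 100 bp, 4 of the 13 had WGATAR, beside 55.4% of all IDR summits counted the same way. The distance from the summit to the nearest base of a WGATAR site ran from 29 to 608 bp with a median of 122 bp, beside a median of 71 bp over nuclear IDR summits. The interval is wide and covers counting error only, and no test was run over the genes, which were chosen with earlier results known.

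TGATNNAT, a motif bound by Hox and Pbx proteins together, was within 50 bp of 4 of the 13 summits, 30.8% (exact 95% binomial interval 9.09 to 61.4), beside 8.12% of all IDR summits. These were the ceh-13 summits 768 bp upstream and 4324 bp downstream and those of unc-62 at 4505598 and 4507985, whose sequences are given above. All thus came from the windows of ceh-13 and unc-62, and the summit 4324 bp downstream was nearer to the start of lgc-12. The interval covers counting error only and treats summits of the same gene as independent. No test was run, and the genes were chosen with earlier results known. TGATNNAT and the GATA form TGATAA can share letters, but no match at these summits did. TGACAG, a motif of Meis proteins, was at 0 of 13, beside 5.18% of all IDR summits. A match of such letters is a description and not evidence that a Hox or Pbx protein was bound.

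**Figure D4:**
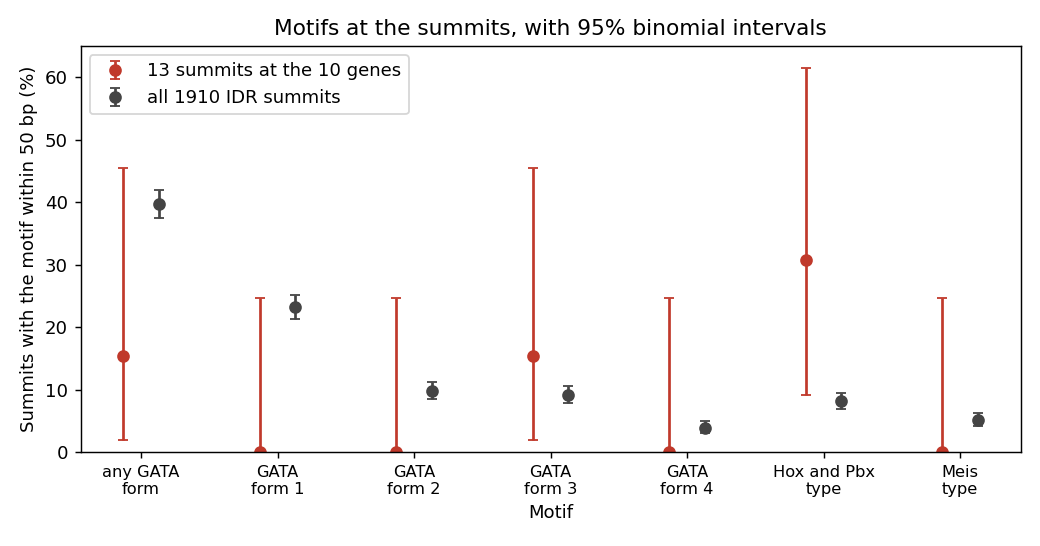
Share of summits with each motif within 50 bp, for the 13 IDR summits in the windows of the 10 genes (red) and all 1910 IDR summits (black), with exact 95% binomial intervals. GATA form 1 is AGATAA, form 2 is AGATAG, form 3 is TGATAA and form 4 is TGATAG, the Hox and Pbx type is TGATNNAT and the Meis type is TGACAG. The red points are at 15.4% for any GATA form and 30.8% for TGATNNAT, with wide intervals.

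In place relative to the listed gene, 5 of the 13 IDR summits were in its promoter window, 3 in untranslated exons of unc-62 transcripts outside it, and 5 were distal to it. Of these 5, 3 were at the starts of other genes, rfc-4, prk-1 and cux-7. Of the 13, 9 had the listed gene's start as the nearest protein-coding one and 4 had that of another gene. Promoter windows held an IDR summit for ceh-13, lin-39, unc-62 and ceh-20, 4 of the 10 genes, beside 5.03% of all protein-coding genes. For lin-39 and unc-62 this rested on inner transcript starts. With the promoter window of the first start alone, an alternative chosen after seeing the data, the count was 2 of 10, ceh-13 and ceh-20, beside 4.45% of all genes.

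Between the neighbouring protein-coding genes, at most 10 kb on each side, 4 of the 10 genes had an IDR summit, beside 13.8% of all protein-coding genes. That stretch is longer at the listed genes, with a median of 17.1 kb against 6.04 kb over all genes. unc-62 kept all 5 of its summits there, and 0.17% of genes had as many. In the 10 kb window 0.43% of genes had 5 or more, 86 genes of which 12 are mitochondrial, and the unc-62 window is long, 34.0 kb against a median of 22.0 kb. ceh-13 kept 3, and 0.911% of genes had at least as many between their neighbours, while lin-39 and ceh-20 kept 1 each. The merged windows had 5.53 IDR summits per 100 kb, beside 1.88 over the nuclear genome.

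**Figure D5:**
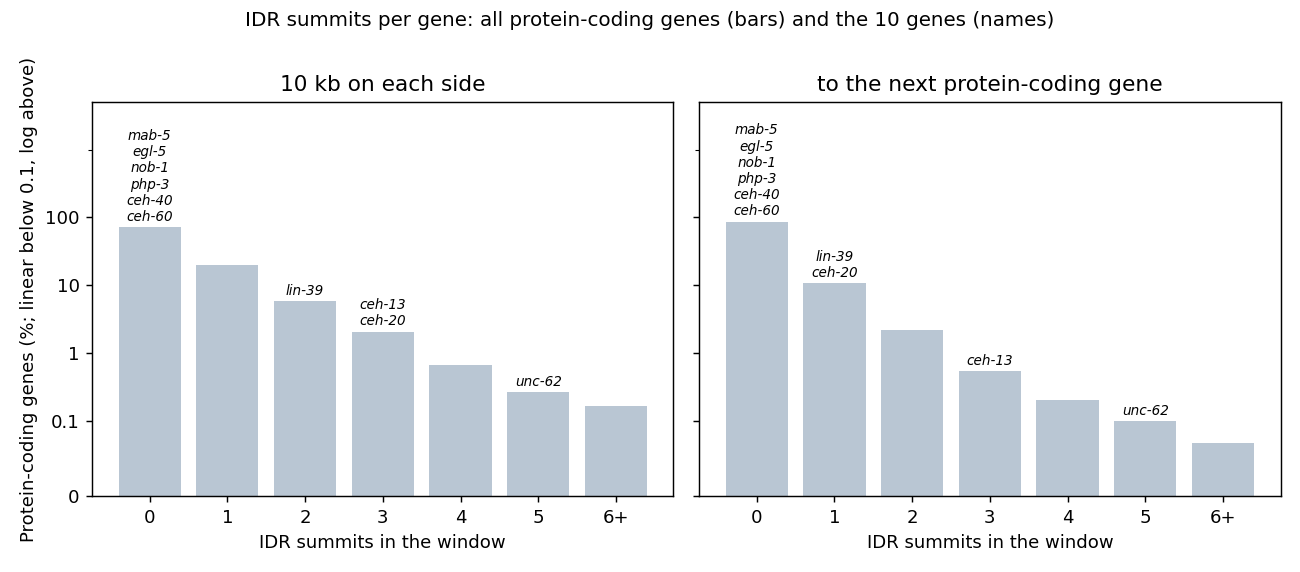
Share of all 19985 protein-coding genes (bars, linear axis below 0.1% and logarithmic above) by number of IDR summits in the window, with 10 kb on each side (left) or to the next protein-coding gene (right). The names of the 10 genes stand above the bar of their own number, with unc-62 at 5 in both panels and 6 genes at 0.

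Other genes of the Hox pathway were read from 2 lists. Of 16 regulators known to act on worm Hox genes, 6 had an IDR summit in the 10 kb window and 3 in the promoter window, beside the 28.6% and 5.03% of all genes. The strongest was at egl-27, a gene for a chromatin factor of the metastasis-associated family, with a signal of 93.8 at a summit 1765 bp from the start and 8 IDR summits in the window. lin-22, a Hairy-type repressor gene that keeps mab-5 off in anterior seam cells, had 1 summit with a signal of 82.2, nearer to the start of vrp-1. lin-59, a trithorax-type gene, had 4 summits, 2 of them between its neighbouring genes, the strongest with a signal of 78.4 at 65 bp from the start of F21A9.2. lin-49, a gene for a bromodomain protein, had a signal of 45.1 at a summit 352 bp from its start. The egl-27, lin-22 and lin-59 summits had WGATAR within 50 bp and that of lin-49 did not.

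Of 9 genes known as targets of worm Hox factors or their cofactors, 4 had an IDR summit in the window and 1 in the promoter window, beside the same shares of all genes. Between neighbouring genes the count was 3 of 9, beside 13.8% of all genes, and elt-6 had 0 IDR summits there. The GATA factor gene egl-18, which acts with its neighbour elt-6 in seam and vulval cells, had an intronic peak with a signal of 229 at percentile 98.4, which the window of elt-6 shares. eff-1, the gene for the protein that fuses epidermal cells, had 3 IDR summits in its window, 2 of them between its neighbouring genes. The strongest, with a signal of 61.3, was 400 bp from the start of col-77. mig-13, a neuroblast migration gene, had a signal of 29.9 at a summit 71 bp from its start, with WGATAR within 50 bp. The egl-18 and eff-1 summits had no WGATAR within 50 bp.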

How the data were processed

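The authors deposited peak lists from ChIP-seq of 2 biological replicates of 1 group. The authors' notes on how files derive from each other record a relaxed list for replicate 1, for replicate 2 and for the pool, made against a control that is not analysed here, and an IDR list made from them. Which aligner, caller and threshold were used is not given in the sources used here. The deposited signal is a value per peak whose scaling is not stated, and the deposited summit offset was added to the peak start. Lists on ce10 were not used.

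Summits were placed with Python 3.11 against protein-coding genes of Ensembl release 115, with sequence from the RefSeq WBcel235 genome. Places are relative to the listed gene, with all its annotated protein-coding transcript starts. Replicate summits were matched within 100 bp, and a replicate's strongest list was its 1910 strongest summits. Intervals are exact Clopper-Pearson ones (scipy 1.17.1). With 1 group, no test was run. Code was tested on simulated positions. The members and lists were chosen with earlier results of these data known. Every member is described, and of each pathway list up to 4 genes by highest signal, plus genes whose start is nearer to a summit. Alternatives were other windows, site and match distances, the 955 strongest IDR peaks, and each replicate alone.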

Additional observations from a re-analysis of the deposited data

How the results depend on the processing

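Of 35 alternative values, 26 stayed within 1.5 times the reported count, within the interval of the reported share or within the replicate spread of the percentile. These limits are wide: WGATAR at 30.8% within 100 bp and 6 genes against 4 both counted as staying. The tally thus shows little about stability. In the stronger 955 IDR peaks, 6 of the 13 summits remained, 2 genes had one in the promoter window and 0% had WGATAR, where the limit from 3 counts of 6 is 50%. WGATAR was also at 0% within 25 bp. Promoter windows held a summit for 2 genes with 500 bp upstream and 100 bp downstream, and for 2 with the first start only. All 13 summits were matched when the whole replicate lists were used. The median percentile was 46.4 with 5 kb flanks and 46.4 between neighbouring genes. With 1 replicate alone there were 11 to 14 summits, 4 to 6 genes with one, 4 genes in promoter windows, and WGATAR at 18.2% to 21.4%. The genes added in replicate 1 were mab-5 and egl-5. The cause of these differences was not tested. With 13 summits, shares are imprecise, and unknown read depth limits what a missing peak shows.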
